A study of Mus with 4 samples.

Results

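The slit diaphragm and podocyte structural genes examined here were Nphs1, Kirrel, Podxl, Cd2ap, Magi2, Tjp1, Synpo, Plce1 and Trpc6. They were picked by name, and each probe of the array whose gene symbol in the deposited table was one of these 9 symbols was taken, of 26893 symbols in all. Their transcripts were measured in an immortalized murine podocyte cell line that had been differentiated before it received a lentivirus. The control group received a lentivirus for Venus, a fluorescent protein. The other group received a lentivirus carrying the active, N-terminal form of OASIS, a transcription factor also named Creb3l1. RNA was taken 48 h after the lentivirus, and each group had 2 samples, each on its own array of 1 colour. The vector was given at a high multiplicity of infection, and the added OASIS was expressed from the vector and not from the promoter of its own gene. Among markers of podocytes, Synpo, Podxl, Wt1 and Kirrel were well above background on all arrays of both groups, whereas Nphs1 and Ptpro were not. Wt1 was not level between the groups by each probe. Its probe A_55_P1953143, dim with Venus, was higher with OASIS by a log2 fold change of 4.62, while A_55_P2719484 was at -0.16. The labels do not say whether the samples of a group came from separate cultures, so that p-values measure only the spread between these samples.

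Podocytes cover the outer side of the glomerular capillaries, and their interlocking foot processes are joined by the slit diaphragm, a thin cell junction that is part of the filter of the kidney. Nephrin, the product of Nphs1, and the related protein Neph1, the product of Kirrel, span this junction. Scaffold proteins such as those of Cd2ap, Magi2 and Tjp1 tie their inner ends to the actin cytoskeleton, and phospholipase C epsilon and the calcium channel TRPC6 act in signalling in the foot processes. Loss or mutation of several of these genes is a known cause of proteinuric kidney disease.

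Of the 9 genes, Cd2ap, Kirrel and Plce1 each had 1 probe that differed more than 2-fold between the groups, higher with OASIS for Cd2ap and lower for Kirrel and Plce1. In each of these genes the other probes did not pass that threshold. Both measured probes of Magi2 were lower with OASIS by less than 2-fold, those of Tjp1 differed little, and Nphs1 was not measurable with either probe. The 9 genes were covered by 29 probes, of which 18 probes of 8 genes were tested. Testing required that both arrays of either group called the probe well above background, and all 18 had this call on all 4 arrays. None of the 29 spots was marked as an outlier or as saturated.

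A probe passed the threshold when it differed more than 2-fold and had a limma p, adjusted by Benjamini-Hochberg over the 31598 tested probes, under 0.1. Of the 18 member probes, 1 passed it higher and 2 passed it lower with OASIS, or 16.7%, where 8.36% of all probes did. On this array 5.89% of all probes tested passed higher and 2.47% lower. By the adjusted p alone, 2 member probes were higher and 6 lower, or 44.4% against 36.7% of all probes, of which 17% were higher and 19.7% lower. Without Venus 1 or without Venus 2 that count of lower probes was 2, and whichever array was left out that of higher probes was 1. Both OASIS arrays lay above both Venus arrays for 3 member probes and below them for 10. Over all probes tested the groups did not overlap in 68%, with OASIS above in 28.6% and below in 39.4%. Member probes had a median log2 fold change of -0.26, and all probes one of -0.069. With each gene taken by its brightest probe, 1 gene was higher and 1 lower of 8, where 8.06% of all 16318 genes passed, namely 6.21% higher and 1.85% lower with OASIS, and the median was -0.20 beside -0.056. Both gene calls were lost with the mean of a gene's tested probes, where Cd2ap was at 0.34 and Plce1 at -0.68.

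**Figure D1:**
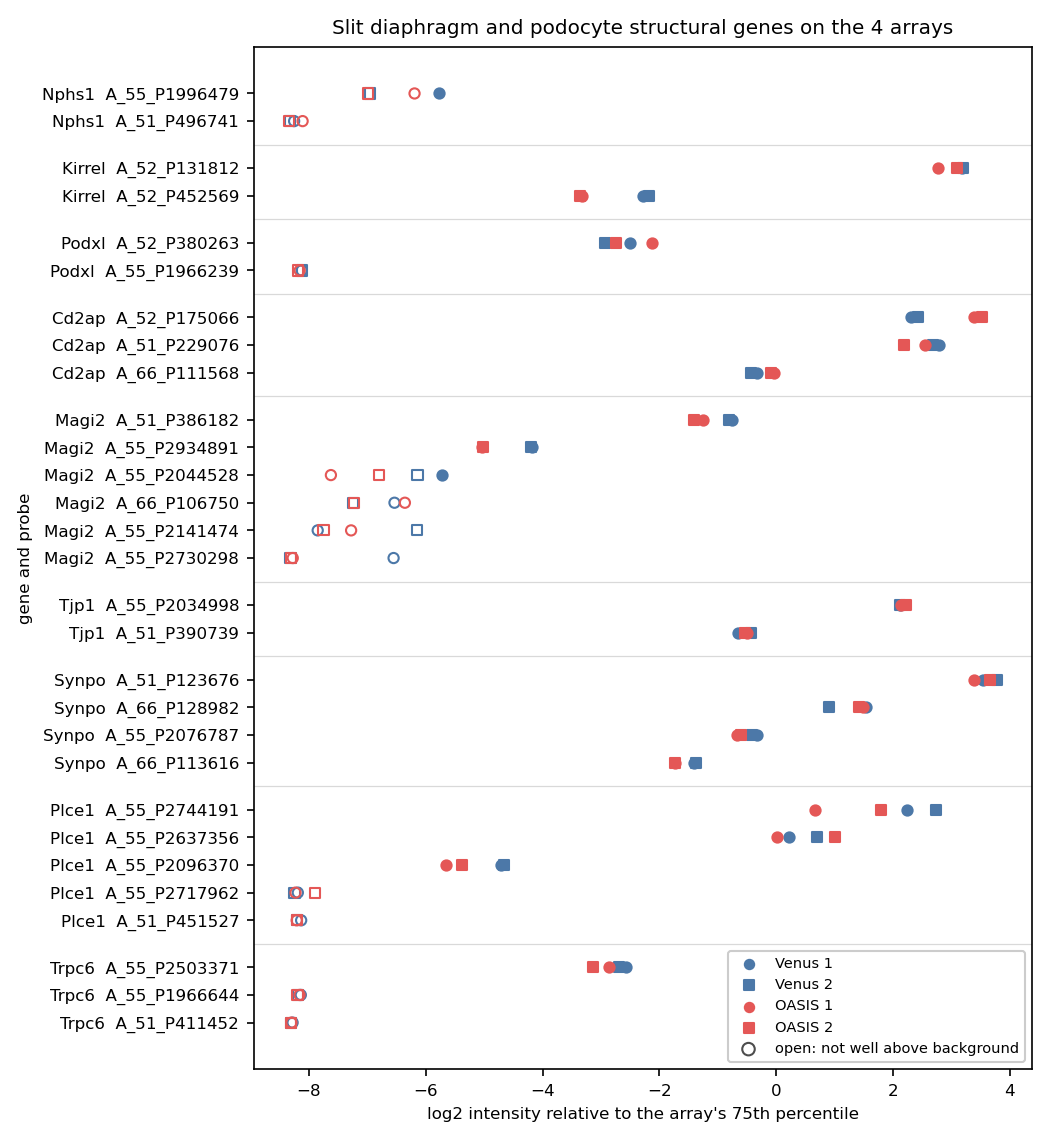
Normalized log2 intensity, which sets each array's 75th percentile to 0, for the 29 probes of the 9 genes on the 2 Venus arrays (blue) and the 2 OASIS arrays (red), with open symbols for signals not well above background. The Venus and OASIS symbols are set apart by about 1 log2 unit for 1 probe of Kirrel and 1 probe of Cd2ap, while both probes of Nphs1 lie at the lower end with open symbols on at least 3 arrays.

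Nphs1, on chromosome 7 band qB1, encodes nephrin, the defining transmembrane protein of the slit diaphragm. Its brighter probe, A_55_P1996479, had normalized log2 intensities of -5.78 and -6.96 with Venus and -6.19 and -7.00 with OASIS. It had a signal well above background with Venus on 1 of the 2 arrays and with OASIS on 0 of 2. Its other probe, A_51_P496741, read between -8.34 and -8.11 and was not well above background on any array. No fold is given for Nphs1, since even the Venus mean of the brighter probe, -6.37, was below about -6.1, the lowest level at which other probes had that call. The deposited scaled intensities of the brighter probe were 11.8 and 5.45 with Venus and 8.66 and 5.30 with OASIS. In these cells a fall of nephrin mRNA was therefore not measurable, and no rise brought either probe well above background with OASIS.

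Kirrel, on chromosome 3 band qF1, encodes Neph1, which binds nephrin across the slit. The probe annotated to transcript variant 2, A_52_P452569, read -2.28 and -2.18 with Venus and -3.32 and -3.36 with OASIS. Both OASIS arrays lay below both Venus arrays, with 1.03 log2 units between the nearest arrays. The deposited scaled intensities of this probe were 133 and 149 with Venus and 63.5 and 66.0 with OASIS. Its log2 fold change was -1.11 ± 0.10 (SE, 2 arrays per group), or 2.15-fold lower (limma, adjusted p = 0.00705), with a 95% interval of -1.38 to -0.83 on the log2 scale. With normexp background correction the log2 fold change was -0.76, and the call ended because the fold was under 2. The probe annotated to variant 1, A_52_P131812, read 3.19 and 3.19 with Venus and 2.77 and 3.10 with OASIS. The OASIS arrays were again the lower ones, by as little as 0.089 log2 units, and the log2 fold change of -0.26 ± 0.15 (SE) did not pass (limma, adjusted p = 0.253).

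Podxl, on chromosome 6 band qA3.3, encodes podocalyxin, the negatively charged sialomucin of the apical surface of the foot processes. Its probe A_52_P380263 read -2.51 and -2.93 with Venus and -2.13 and -2.74 with OASIS. The groups overlapped. The log2 fold change was 0.28 ± 0.26 (SE) with an interval of -0.41 to 0.97 (limma, adjusted p = 0.475), which leaves room for a rise of nearly 2-fold as well as for a fall. A second Podxl probe was not well above background on any array.

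Cd2ap, on chromosome 17 band qB3, encodes CD2-associated protein, an adaptor that links nephrin to the actin cytoskeleton and to endocytosis. Probe A_52_P175066 read 2.31 and 2.42 with Venus and 3.39 and 3.53 with OASIS. The groups were 0.96 log2 units apart at their nearest arrays. In deposited scaled intensity the values were 3205 and 3623 with Venus and 6614 and 7786 with OASIS. The log2 fold change was 1.09 ± 0.11 (SE), or 2.13-fold higher (limma, adjusted p = 0.00832), with an interval of 0.79 to 1.39. It stayed past the threshold without any single array, at log2 fold changes from 1.02 to 1.16.

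The other probes of Cd2ap did not pass the threshold. Probe A_51_P229076 read 2.79 and 2.69 with Venus and 2.55 and 2.20 with OASIS. Here both OASIS arrays lay below both Venus arrays, and the log2 fold change of -0.37 ± 0.15 (SE) did not pass (limma, adjusted p = 0.151). Probe A_66_P111568 read -0.32 and -0.42 with Venus and -0.03 and -0.08 with OASIS. It was 1.24-fold higher, a log2 fold change of 0.31 ± 0.10 (SE) that passed the adjusted p but not the fold (limma, adjusted p = 0.0920). The files annotate the 3 probes to a single RefSeq transcript but to 3 different Ensembl transcripts.

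Magi2, on chromosome 5 band qA3, encodes a scaffold of several PDZ domains that binds nephrin. Its brightest probe, A_51_P386182, read -0.75 and -0.80 with Venus and -1.26 and -1.41 with OASIS. The groups did not overlap, and the log2 fold change was -0.55 ± 0.11 (SE), or 1.47-fold lower (limma, adjusted p = 0.0308). Under the alternatives of the closing section it ran from -0.63 to -0.48, and not all of them kept the adjusted p under 0.1. The second tested probe, A_55_P2934891, read -4.18 and -4.20 with Venus and -5.05 and -5.03 with OASIS. It too was lower on both OASIS arrays, with a log2 fold change of -0.85 ± 0.097 (SE), or 1.80-fold (limma, adjusted p = 0.0100). With normexp background correction this log2 fold change was -0.29. Of the 4 probes not tested, A_55_P2044528 was well above background on Venus 1 only. Its bound was 1.15-fold lower with the OASIS arrays set to their detection floor. This bound is not firm, since it uses the mean of both Venus arrays. The remaining 3 were not well above background on any array.

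Tjp1, on chromosome 7 band qC, encodes the junction protein ZO-1, which binds Neph1 on the inner side of the slit diaphragm. Probe A_55_P2034998 read 2.12 and 2.12 with Venus and 2.13 and 2.21 with OASIS. Probe A_51_P390739 read -0.66 and -0.44 with Venus and -0.51 and -0.54 with OASIS, and there the groups overlapped. The log2 fold change of the first was 0.05 ± 0.10 (SE) with an interval of -0.21 to 0.32 (limma, adjusted p = 0.724). That of the second was 0.02 ± 0.12 (SE) with an interval of -0.30 to 0.35 (limma, adjusted p = 0.901). For both probes a change of 2-fold lay outside the interval.

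Synpo, on chromosome 18 band qD3, encodes synaptopodin, an actin-binding protein of differentiated foot processes. It had 4 probes well above background on every array. The brightest, A_51_P123676, annotated to variant A, read 3.55 and 3.77 with Venus and 3.38 and 3.65 with OASIS. The groups overlapped, and the log2 fold change of -0.14 ± 0.15 (SE) did not pass (limma, adjusted p = 0.532). Both probes annotated to variant B were lower on both OASIS arrays. A_66_P113616 read -1.41 and -1.37 with Venus and -1.74 and -1.73 with OASIS, a log2 fold change of -0.34 ± 0.098 (SE) that passed the adjusted p but not the fold (limma, adjusted p = 0.0671). A_55_P2076787 had a log2 fold change of -0.26 ± 0.10 (SE; limma, adjusted p = 0.133). The fourth probe, A_66_P128982, read 1.53 and 0.90 with Venus and 1.48 and 1.42 with OASIS, so that a single Venus array lay apart from the other three. Its log2 fold change was 0.24 ± 0.23 (SE; limma, adjusted p = 0.496) and was -0.081 without Venus 2.

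Plce1, on chromosome 19 band qC3, encodes phospholipase C epsilon, mutated in early-onset nephrotic syndrome. Its brightest probe, A_55_P2744191, read 2.24 and 2.73 with Venus and 0.66 and 1.79 with OASIS. Both OASIS arrays lay below both Venus arrays, but they differed from each other by more than the gap of 0.44 log2 units between the groups. The deposited scaled intensities were 3044 and 4486 with Venus and 1002 and 2343 with OASIS. The log2 fold change was -1.26 ± 0.42 (SE), or 2.39-fold lower (limma, adjusted p = 0.0932), with an interval of -2.36 to -0.16. This call was at the edge of the threshold. It was lost without Venus 1 (log2 fold change -1.50, adjusted p = 0.155), without Venus 2 (-1.01, adjusted p = 0.275) and without OASIS 1 (-0.69, adjusted p = 0.156), all by limma.

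The remaining Plce1 probes did not pass the threshold. A_55_P2637356 read 0.23 and 0.70 with Venus and 0.02 and 1.001 with OASIS. Here the OASIS arrays lay on either side of the Venus arrays, and the log2 fold change was 0.05 ± 0.37 (SE; limma, adjusted p = 0.939). A dim probe, A_55_P2096370, read -4.72 and -4.66 with Venus and -5.66 and -5.37 with OASIS. It was lower on both OASIS arrays, at a log2 fold change of -0.83 ± 0.14 (SE; limma, adjusted p = 0.0205), and -0.19 with normexp background correction (adjusted p = 0.144). A further 2 probes were not well above background on any array.

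Trpc6, on chromosome 9 band qA1, encodes the calcium channel TRPC6, in which gain-of-function mutations cause focal segmental glomerulosclerosis. The probe annotated to variant 3, A_55_P2503371, read -2.57 and -2.70 with Venus and -2.87 and -3.13 with OASIS. The OASIS arrays were the lower ones by at least 0.17 log2 units. The log2 fold change of -0.37 ± 0.14 (SE), or 1.29-fold lower, did not pass (limma, adjusted p = 0.117). Both probes annotated to variant 1 read between -8.31 and -8.14 and were not well above background on any array.

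**Figure D2:**
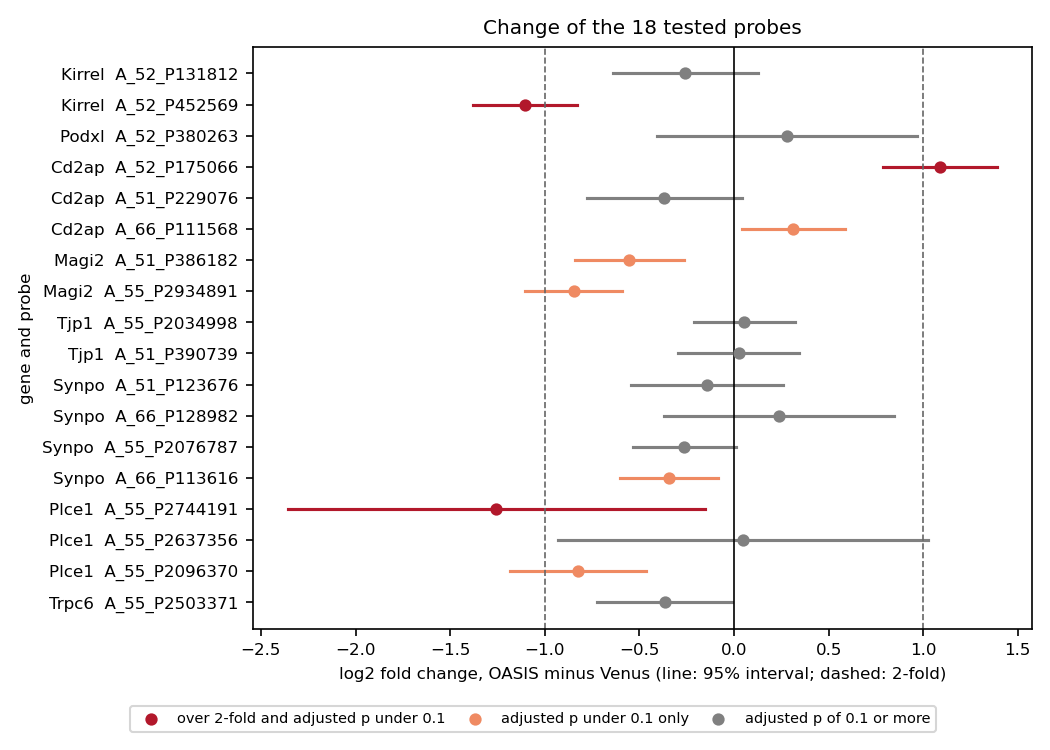
Log2 fold change, OASIS minus Venus, of the 18 tested probes, with the 95% interval from limma as a line, from 2 arrays per group. The intervals of Cd2ap A_52_P175066 (0.79 to 1.39) and Kirrel A_52_P452569 (-1.38 to -0.83) are narrow and far from 0, whereas that of Plce1 A_55_P2744191 runs from -2.36 to -0.16.

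Since probes of a gene moved differently, the log2 ratio of each pair of tested probes of a gene was taken within each array and fitted with limma over 15986 pairs of 7135 genes. The size of such a ratio has no meaning of its own, because probes differ in brightness, but a change in it says that the probes of a gene changed unequally. This comparison was added after the values were seen. Of the 15 pairs in 6 member genes, 5 pairs in 3 genes had an adjusted p under 0.1, and 2 of them also changed more than 2-fold. Over all pairs, 26.2% had such an adjusted p and 11% also the fold.

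In Cd2ap the log2 ratio of A_52_P175066 to A_51_P229076 was -0.48 and -0.27 with Venus and 0.84 and 1.33 with OASIS. The ratio was higher on both OASIS arrays, a change of 1.46 ± 0.21 (SE; limma, adjusted p = 0.0187). Against A_66_P111568, the ratio of A_52_P175066 rose by 0.77 ± 0.14 (SE; limma, adjusted p = 0.0320), and the ratio of A_51_P229076 fell by 0.68 ± 0.15 (SE; limma, adjusted p = 0.0456). In this fit all 3 Cd2ap probes changed unequally. The 3 ratios are not separate findings, since each follows from the others.

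In Plce1 the log2 ratio of A_55_P2744191 to A_55_P2637356 was 2.01 and 2.03 with Venus and 0.64 and 0.79 with OASIS. Replicate arrays lay much closer in this ratio than in the signal of either probe, and the change was -1.30 ± 0.12 (SE; limma, adjusted p = 0.0130). Against the dim A_55_P2096370, the ratio of A_55_P2744191 changed by -0.43 ± 0.33 (SE; limma, adjusted p = 0.471) and did not pass. That of A_55_P2637356, at 0.87 ± 0.29 (SE; limma, adjusted p = 0.119), did not pass either. In Kirrel the ratio of the variant 1 probe to the variant 2 probe was 5.47 and 5.37 with Venus and 6.09 and 6.45 with OASIS. It was higher on both OASIS arrays, by 0.85 ± 0.17 (SE; limma, adjusted p = 0.0360). With normexp background correction this change was only 0.46 (limma, adjusted p = 0.0411). The ratios of A_52_P175066 to A_51_P229076 and of A_55_P2744191 to A_55_P2637356 kept an adjusted p under 0.1 without any single array. The Kirrel ratio did not without Venus 1 (adjusted p = 0.134), Venus 2 (0.151) or OASIS 2 (0.103), nor did the Cd2ap ratios to A_66_P111568 without Venus 1 (0.168 and 0.193) or OASIS 2 (0.127 and 0.126), nor the second of these without Venus 2 (0.179). In Magi2, Tjp1 and Synpo no pair of probes passed by limma, the lowest adjusted p being 0.192 for Magi2. All 5 called ratios missed an adjusted p under 0.1 with the methods' t-test, the test that the study names for its other data (0.174 to 0.222). Without a filter on dim probes the Kirrel ratio (0.131) and the Cd2ap ratios to A_66_P111568 (0.118 and 0.144) missed it too. Which exons the probes cover was not analysed here.

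**Figure D3:**
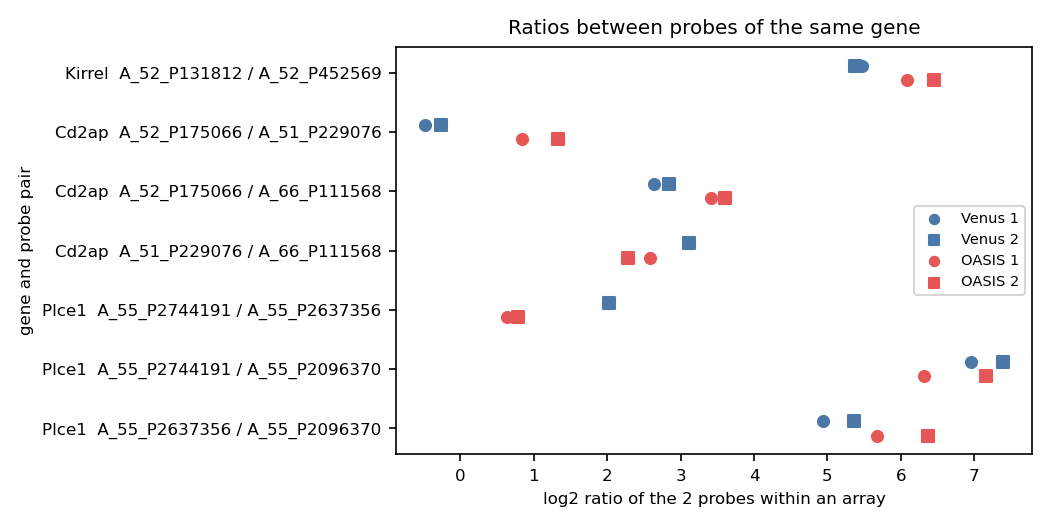
Log2 ratio of 2 probes of the same gene within each array, for the probe pairs of Kirrel, Cd2ap and Plce1, on the Venus arrays (blue) and the OASIS arrays (red). For the first pair of Plce1 the Venus arrays lie at 2.01 and 2.03 and the OASIS arrays at 0.64 and 0.79, and for the first pair of Cd2ap the Venus arrays lie below 0 and the OASIS arrays above it.

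Further genes known for the slit diaphragm, its adaptors, the actin cytoskeleton of foot processes and podocyte signalling were taken as a list of 45, all of them on the array, each by its brightest probe. Of the 38 that were tested, 1 passed the threshold higher with OASIS and 0 lower by limma, or 2.63% against 8.06% of all genes. By the adjusted p alone, 6 were higher and 7 lower, or 34.2% against 36.8% of all genes, of which 18.6% were higher and 18.1% lower. An unadjusted p under 0.05 was found for 17 of them, and for 40.9% of all genes. For these 38 genes the median log2 fold change was -0.19. The methods' t-test called 0 in either direction after adjustment.

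Slc9a3r2, which encodes NHERF2, a scaffold that ties podocalyxin to ezrin, was the gene past the threshold. It read 0.26 and 0.43 with Venus and 1.40 and 1.38 with OASIS. The groups were far apart beside the spread within them, and the log2 fold change was 1.04 ± 0.11 (SE; limma, adjusted p = 0.00874). Without Venus 1 no listed gene was called higher, and without OASIS 2 the count was 2 higher and 1 lower.

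Among the membrane proteins, Kirrel2, a relative of Kirrel in the Neph family, was not well above background on any array. Crb2, Robo2 and Ptpro were not tested either. Kirrel3, the remaining Neph gene, read -3.37 and -3.38 with Venus and -2.91 and -2.84 with OASIS. Its log2 fold change was 0.50 ± 0.10 (SE; limma, adjusted p = 0.0313), while that of its other tested probe was -0.025. Of the 5 membrane protein genes tested, Kirrel3 was the one with an adjusted p under 0.1, or 20% against 36.8% of all genes.

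Among the 15 scaffold and adaptor genes tested, 4 were higher and 4 lower by the adjusted p, or 53.3% against 36.8% of all genes. Magi1, a relative of Magi2, read -0.15 and -0.23 with Venus and -0.65 and -0.72 with OASIS, a log2 fold change of -0.50 ± 0.10 (SE; limma, adjusted p = 0.0331). Nck1, an adaptor that binds phosphorylated nephrin, did not pass at 0.08 ± 0.11 (SE; limma, adjusted p = 0.626). Fyn, the kinase that phosphorylates nephrin, did not pass at 0.24 ± 0.20 (SE; limma, adjusted p = 0.429). Ddn, which encodes dendrin, was not well above background on any array.

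Among the 14 actin regulators, 0 were higher and 3, or 21.4%, lower by limma's adjusted p, near the 18.1% of all genes, and 4 had an unadjusted p under 0.05. Actn4, which encodes the actin crosslinker alpha-actinin-4, read 5.08 and 5.10 with Venus and 4.87 and 4.89 with OASIS. Its OASIS arrays lay lower by little, and the log2 fold change of -0.22 ± 0.097 (SE) did not pass (limma, adjusted p = 0.172). In the signalling group, Trpc5 was not tested, and of the other 4 genes 1, or 25%, was higher by the adjusted p, where 18.6% of all genes were.

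**Figure D4:**
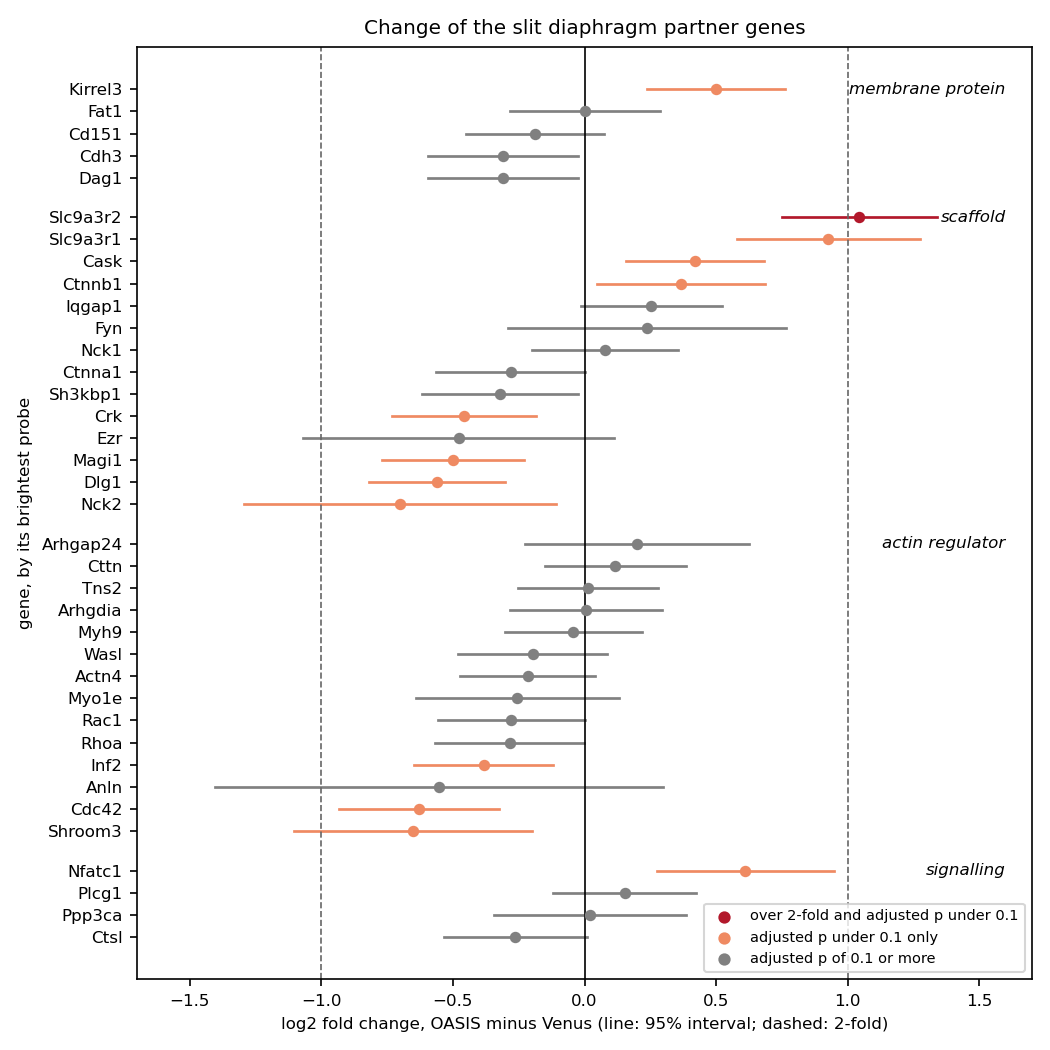
Log2 fold change, OASIS minus Venus, of tested partner genes, each by its brightest probe and sorted within its role, with the 95% interval from limma as a line. Slc9a3r2, at 1.04, is the one gene beyond the 2-fold lines with an adjusted p under 0.1, and 7 genes lie below 0 with such an adjusted p.

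Levels of markers of other cells were summed in units of the array's 75th percentile. Fewer cells of a type and less RNA per cell cannot be told apart in such values. The tubular list had 3 of 6 markers well above background, with Umod, Slc12a1 and Slc12a3 not, and its summed level was 2.63 and 3.40 with Venus and 6.48 and 7.96 with OASIS. That rise was in Lrp2, by its brightest probe 1.62 ± 0.23 on the log2 scale (SE; limma, adjusted p = 0.0148), and in only 2 of its 5 probes, while Cubn (-0.22) and Aqp2 (-0.39) lay lower with OASIS. The mesangial one had 3 of 4 with Venus and 2 of 4 with OASIS, at 5.18 and 5.45 against 2.69 and 3.20. That fall was in Ren1, at -2.90 ± 0.14 (SE; limma, adjusted p = 0.00252), while Pdgfrb, at -0.097 (limma, adjusted p = 0.716), did not pass. The leukocyte list, with 3 of 4, was at 17.9 and 16.5 against 13.2 and 12.5, mostly from Itgam (-0.51 ± 0.12 SE, limma, adjusted p = 0.0430). The parietal one, with 3 of 3, was at 8.70 and 8.41 against 7.46 and 7.13. Its markers went different ways by their brightest probes. Pax8 (-0.37, limma, adjusted p = 0.0776) and Pax2 (-0.13, limma, adjusted p = 0.405) lay lower with OASIS, while Cldn1 was higher (0.46, limma, adjusted p = 0.0391). The endothelial one had 1 of 5, and its sums were between 0.043 and 0.054. The part of these markers in the changes of Cd2ap, Kirrel and Plce1 was not tested.

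Each array held 59305 spots, of which between 33938 and 34418 were well above background. Over all probes tested, replicate arrays correlated at r = 0.997 for Venus and 0.995 for OASIS, and arrays of different groups at 0.973 to 0.978. The single Creb3l1 probe read 0.71 and 0.72 with Venus and 0.61 and 0.49 with OASIS (log2 fold change -0.17 ± 0.10, SE; limma, adjusted p = 0.298). Whether it lies within the part carried by the vector was not analysed here, so that it does not check the labels. All arrays were on 1 slide and in 1 scan, and with 2 arrays per group an exact permutation test cannot give a two-sided p under 0.333.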

How the data were processed

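Total RNA was labelled with Cy3 and hybridized to Agilent 1-colour mouse arrays. The authors deposited scanner output of Feature Extraction 12.1.0.3 with a background-corrected intensity per spot and flags per spot for outliers, saturation and signal well above background. They also deposited a table of scaled intensity, a detection score, gene symbols and bands. The array design was on mm9, a genome of that build was not used, and coordinates are not given.

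Control and outlier spots were left out, the 75th percentile of an array was subtracted from its log2 intensity, and replicate spots were averaged. A probe had the well above background call where at least 0.5 of its spots did. limma 3.58.1 in R 4.3.3 (lmFit, eBayes) compared the groups. The threshold is that of the study's methods, which name no test for the arrays. For a probe dim in a group, the bound sets the mean of the brighter group against, on each array, its own value or the lowest that any probe with that call had, whichever was higher. The code was tested on simulated data. All members were named with every probe. Of the partner list, genes past the threshold were named, and always Kirrel2, Kirrel3, Actn4, Fyn, Nck1, Magi1 and Ddn. Some listed genes are not reported here. The members and lists were chosen with earlier results of these data known. The closing section gives the alternatives.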

Additional observations from a re-analysis of the deposited data

How the results depend on the processing

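Of the results for single probes, genes and probe ratios under all alternatives, 559 kept their side of the threshold, 37 lost the call, 5 gained one and 7 changed sign. For probe ratios the threshold was the adjusted p alone. Most of the 559 were results that had no call to lose, so that this number does not measure how stable the calls were. The changes of sign came when an array was left out, over which log2 fold changes ran from -0.023 to 0.58 for Podxl A_52_P380263 (also as the value of the gene; lowest without OASIS 1), -0.081 to 0.55 for Synpo A_66_P128982 (without Venus 2), -0.086 to 0.14 for Tjp1 A_51_P390739 (without Venus 1), -0.44 to 0.54 for Plce1 A_55_P2637356 (without OASIS 2, and -0.19 without Venus 1) and -0.026 to 0.50 for Fyn (without OASIS 2). None of these was called. Of all probes, 1861 were higher and 780 lower, but 973 and 250 with normexp background correction and 551 and 175 with the methods' t-test. The member probes past the threshold were 1 higher and 2 lower. With the methods' t-test they were 0 and 1, Cd2ap A_52_P175066 being lost at an adjusted p of 0.1004. The lower count was 1 with normexp, where Kirrel A_52_P452569 was lost, and 1 without a filter on dim probes, with the scaled values of the authors or at an adjusted p under 0.05, where Plce1 A_55_P2744191 was lost. Without each array in turn it was 1 to 2. By the adjusted p alone, 2 member probes were higher and 6 lower. The higher count was 1 with no filter, 0 with the methods' t-test, 1 at an adjusted p under 0.05 and 1 to 1 without each array, and the lower count was 3 with the methods' t-test and 2 to 6 without each array. The partner genes past the threshold were 1 higher and 0 lower, but 0 higher with the methods' t-test, 2 higher with the mean of a gene's probes, and 0 to 2 higher and 0 to 1 lower without each array. Where an alternative ended a call and does not itself set the threshold or the number of samples, the cause was not tested.

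With the replicate number as a block, 1879 probes were higher and 823 lower. The member counts stayed at 1 and 2, and 8 member probes were lower by the adjusted p alone. The labels share only the number, and with 2 pairs the correlation of same-numbered arrays' deviations was 0.259. Quantile normalization, scaling to the median, an intensity trend, outlier spots kept and a filter that all 4 arrays had to meet moved no count of calls by over 1.5 times. Signal over background limits Nphs1, Trpc6 variant 1 and the dim probes of Magi2 and Plce1.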

Other observations

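Of the partner genes with an adjusted p under 0.1 that the naming rule left out, those here were named after their values were seen. Slc9a3r1, which encodes the podocalyxin-binding scaffold NHERF1, was higher on the log2 scale by 0.93 ± 0.13 (SE; limma, adjusted p = 0.0151) by its brightest probe and by 1.03 ± 0.15 by its other tested probe. Nfatc1, a calcineurin-dependent transcription factor, was higher on that scale by 0.61 ± 0.13 (SE; limma, adjusted p = 0.0337), and its dimmer probe by 1.43 ± 0.15 (SE; limma, adjusted p = 0.00797). Cdc42, which encodes a small GTPase of the actin cytoskeleton, had probes that moved in opposite directions. Its brightest probe had a log2 fold change of -0.63 ± 0.12 (SE; limma, adjusted p = 0.0257), and a dim one 1.08 ± 0.18 (SE; limma, adjusted p = 0.0209). Shroom3, which encodes an actin-binding protein, read 3.74 and 4.01 with Venus and 3.05 and 3.39 with OASIS, a log2 fold change of -0.65 ± 0.17 (SE; limma, adjusted p = 0.0570). By limma and with smaller changes or a wider spread, Dlg1 (-0.56, adjusted p = 0.0233), Crk (-0.46, adjusted p = 0.0405), Inf2 (-0.38, adjusted p = 0.0555) and Nck2 (-0.70, adjusted p = 0.0863) were lower, and Cask (0.42, adjusted p = 0.0455) and Ctnnb1 (0.37, adjusted p = 0.0922) higher. These values are for the brightest probes. No other tested probe of Cask (-0.16, 0.18 and 0.19) or Ctnnb1 (-0.008 and -0.19) had an adjusted p under 0.1. Nor did those of Crk (-0.35) and Nck2 (-0.23) or Dlg1 A_55_P2722090 (0.04), whereas Dlg1 A_55_P2786076 did (-0.41, limma, adjusted p = 0.0742).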
